A study of Mus musculus with 9 samples.

Results

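The EphB receptors and their transmembrane ligands, the ephrin-Bs, were examined in bulk RNA-seq of newborn mouse cortex that carried the transcription factor FEZF2, lacked it, or expressed a repressor fusion of it in its place. Members were the genes whose symbol in the expression table was Ephb1, Ephb2, Ephb3, Ephb4, Ephb6, Efnb1, Efnb2 or Efnb3. All 8 members were present among 24624 genes, and all 8 had a mean of at least 10 over the libraries and were tested. Ephb1 was the only member called by limma or edgeR at an adjusted p under 0.05. Its expression fell to 0.567 of the wild-type level in Fezf2-/- cortices. With an EnR fusion of FEZF2 added, it was 1.85-fold higher than in Fezf2-/-. DESeq2 also called Ephb6 and Efnb2, in the cortices with the fusion against wild type.

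Eph receptors are receptor tyrosine kinases that are activated by ephrins on the surface of neighbouring cells. EphB receptors bind mainly the ephrin-Bs, which span the membrane and signal in their own cell as well, so that contact sends a forward signal into the receptor cell and a reverse signal into the ligand cell. In the developing forebrain the pathway is known for repelling and sorting axons, for the crossing of commissures and for the formation of excitatory synapses. Ephb1 is a known target of FEZF2 in subcerebral projection neurons, the layer 5 neurons that send axons to the brainstem and spinal cord. The paper reported Ephb1 RNA as reduced in Fezf2-/- cortices and restored with the EnR fusion. It used in situ hybridization and RNA-seq of this same series. The fall and return of Ephb1 below are therefore no independent finding.

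On postnatal day 0 there were 3 Fezf2+/+ libraries, 4 Fezf2-/- libraries and 2 Fezf2-/-; Fezf2-EnR libraries, each made from the paired cortical hemispheres of 1 mouse. The null allele carried a PLAP reporter under the Fezf2 promoter. Fezf2-EnR was a bacterial artificial chromosome transgene, studied as 1 line, that expressed the FEZF2 DNA-binding domain fused to the engrailed repressor domain from the Fezf2 start codon, in mice that also lacked Fezf2. The mice came from 3 litters, m1, m2 and m3. Litter m1 held 2 Fezf2+/+ and 2 Fezf2-/- mice, m2 held 1 Fezf2+/+ and 1 Fezf2-/-; Fezf2-EnR mouse, and m3 held 2 Fezf2-/- and 1 Fezf2-/-; Fezf2-EnR mouse. Libraries are named below by their barcodes, bc201 to bc209.

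Values are reads per gene divided by a size factor that puts the libraries on one scale. The libraries held 18716575 to 25127623 reads. Values of Fezf2 followed the labels. They averaged 1074 with an SD of 138 over the 3 wild-type libraries and 217 with an SD of 20.8 over the 4 null libraries. Over the 2 libraries with the transgene they averaged 954 with an SD of 66.4. There the reads can come from the fusion, so they do not show that intact Fezf2 returned. All 9 markers of cortical glutamatergic neurons passed the filter on low values. Their summed value was 87540 to 88080 in Fezf2+/+, 75410 to 96140 in Fezf2-/- and 76210 to 95220 in Fezf2-/-; Fezf2-EnR. Within that list 2 genes were called in Fezf2-/- against Fezf2+/+, in opposite directions: the cortical transcription factor gene Emx1 was lower (log2 fold change -0.44, limma adjusted p = 0.0296) and the vesicular glutamate transporter gene Slc17a6 higher (0.59, limma adjusted p = 0.0367). Each was called in 2 of 9 fits with a library left out, and with a litter block Slc17a6 lost its call (limma adjusted p = 0.0619). Xist, the RNA of the inactive X chromosome, was 10771 in 1 Fezf2+/+ library (bc201), 12203 and 7895 in the Fezf2-/-; Fezf2-EnR libraries and 58.9 or less in the other 6. The sex of the mouse and the transgene therefore cannot be told apart in the comparison of Fezf2-/-; Fezf2-EnR with Fezf2-/-. In the comparison with Fezf2+/+ only bc201 separates them. In whole cortex, fewer cells of a type and less RNA per cell cannot be told apart.

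The start of Ephb1 is shown because this was the only member called by limma. That of Ephb2 is shown because this gene had a like level per kb of annotated exon in wild-type cortex and was not called in any comparison. Both are RefSeq windows on GRCm38.p6, from 250 bases before to 50 bases after the start site, printed 5′ to 3′ on the strand of the gene. Ephb1 is at chr9:102354644-102354943 and Ephb2 at chr4:136835963-136836262, both on the minus strand. Capitals mark the CCAAT box, searched as CCAAT on both strands and present here as ATTGG.
Ephb1: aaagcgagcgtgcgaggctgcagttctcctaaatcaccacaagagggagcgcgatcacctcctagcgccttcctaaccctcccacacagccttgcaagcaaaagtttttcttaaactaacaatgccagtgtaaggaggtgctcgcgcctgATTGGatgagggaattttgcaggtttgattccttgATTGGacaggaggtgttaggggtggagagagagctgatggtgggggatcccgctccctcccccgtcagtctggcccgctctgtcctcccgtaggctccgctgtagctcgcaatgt
Ephb2: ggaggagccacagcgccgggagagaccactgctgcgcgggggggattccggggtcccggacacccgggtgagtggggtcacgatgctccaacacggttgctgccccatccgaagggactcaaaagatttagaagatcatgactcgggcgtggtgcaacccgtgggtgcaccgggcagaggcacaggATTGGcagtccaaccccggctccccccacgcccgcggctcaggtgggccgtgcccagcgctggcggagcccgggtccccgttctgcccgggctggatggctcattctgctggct

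The Ephb1 window held 2 CCAAT boxes, which began 100 and 65 bases before the start site, and the Ephb2 window held 1, which began 64 bases before it. Neither held a GC box (GGGCGG, both strands) or a TATA box (TATAAA, both strands). Of 32851 promoters of the same length, 37.41% held a CCAAT box, 35.66% a GC box and 13.62% a TATA box. GC content was 55.67% at Ephb1, with 14 CpG dinucleotides, and 68.67% at Ephb2, with 24, beside medians of 52.67% and 7.0 over all promoters. Among the other members with an entry, Efnb2 held 3 GC boxes, 2 CCAAT boxes and 1 TATA box, Ephb6 held 5 GC boxes and Ephb4 held 4.

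The Ephb1 gene (ENSMUSG00000032537.15) lies at chr9:101922128-102354693 of GRCm38 on the minus strand and spans 432.6 kb. Its exons overlap those of Gm26846, a long non-coding RNA on the other strand that is not analysed here, and 1.547% of the 50-base stretches of its exons also occur in Gm26846. No 50-base stretch was shared between any 2 members, so reads of one receptor or ligand could not be taken for those of another at that length. The exons of Ephb4 overlap Zan on the opposite strand, and Zan had a value of 3.27 or less in every library. The remaining 6 members overlapped no exon of another gene. The sources used here do not say whether reads were counted by strand.

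To see which receptors and ligands the cortex held, values were divided by the kb of annotated exon of each gene. In Fezf2+/+ the order per kb was Efnb3 (1241 ± 60.5, SD, n = 3), Efnb2 (795 ± 34.8), Ephb6 (517 ± 26.2), Ephb1 (315 ± 26.6), Efnb1 (305 ± 6.74), Ephb2 (296 ± 8.34), Ephb3 (32.3 ± 1.34) and Ephb4 (29.2 ± 2.79). The steps from Efnb3 to Efnb2, from Efnb2 to Ephb6, from Ephb6 to Ephb1 and from Ephb2 to Ephb3 were larger than these SDs. By this length the library values of Ephb1, Efnb1 and Ephb2 overlapped, as did those of Ephb3 and Ephb4. With the longest annotated transcript as the length, Ephb1 was at 473 ± 39.9 per kb, Ephb2 at 342 ± 9.64 and Efnb1 at 323.5 ± 7.14. Ephb2 and Efnb1 then changed places, and Ephb1 stood above both by more than these SDs. Ephb3 (45.2 ± 1.87) likewise stood above Ephb4 (31.2 ± 2.98), so how far these genes stand apart depends on the length used.

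Within the receptors the make-up shifted with Fezf2. Ephb1 held 24.9 to 28.4% of the summed EphB value per kb in Fezf2+/+, 14.3 to 20.7% in Fezf2-/- and 30.8 to 31.5% in Fezf2-/-; Fezf2-EnR. Ephb6 held 42.6 to 44.7%, 42.4 to 51.0% and 31.8 to 37.3% in the same order. The summed receptor value per kb was 1150 to 1224 in Fezf2+/+, 955 to 1088 in Fezf2-/- and 1052 to 1069 in Fezf2-/-; Fezf2-EnR. The ligands kept closer to one another, and Efnb3 held 46.4 to 54.5% of their sum in every library.

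**Figure D1:**
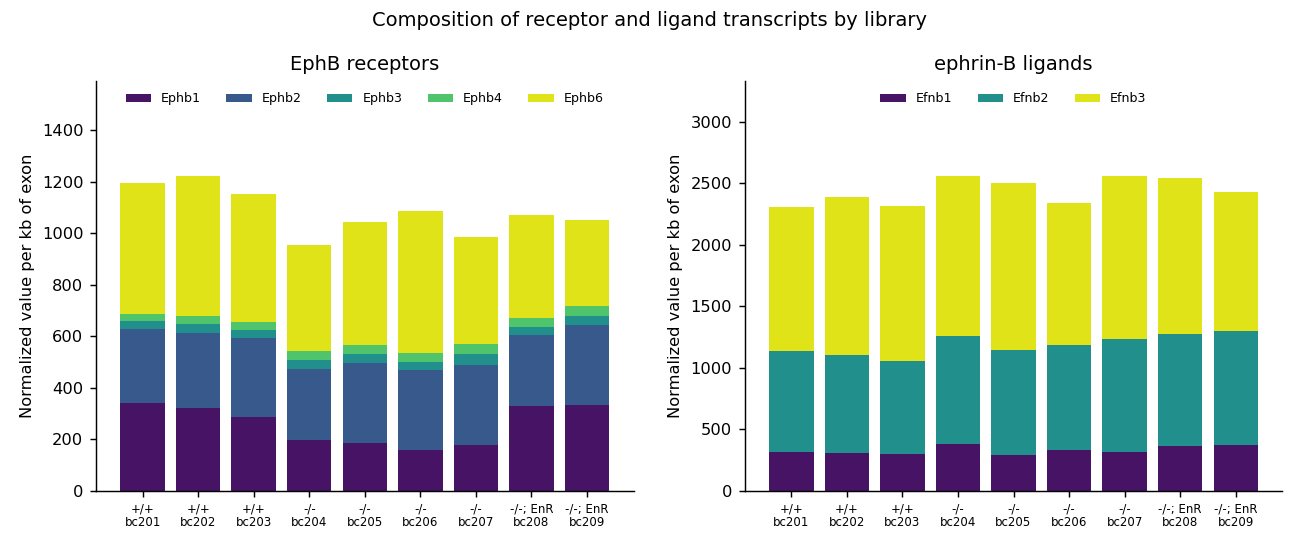
Stacked bars give the normalized value per kb of exon of each EphB receptor (left) and each ephrin-B ligand (right) in each of the 9 libraries, labelled by genotype and barcode. The lowest band of the receptor bars, Ephb1, is thinner in the 4 Fezf2-/- libraries, where it holds 14.3 to 20.7% of the bar.

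To determine whether receptor and ligand expression depended on Fezf2, Fezf2-/- cortices were compared with Fezf2+/+. Of the 8 members, 1 was called at an adjusted p under 0.05 (limma across 16197 genes), and over all genes 0.858% were called. Ephb1 was called lower, as were 0.346% of all genes, and none of the other 4 receptors and none of the 3 ligands passed. An unadjusted p under 0.05 was reached by 3 members, beside 10.8% of all genes. Groups did not overlap in 3 members, beside 13% of all genes.

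Ephb1, a receptor kinase of growing axons, was at 2375, 2238 and 2007 in the Fezf2+/+ libraries and at 1385, 1297, 1092 and 1232 in the Fezf2-/- libraries. The highest null value was well under the lowest wild-type value, so the groups did not overlap. The log2 fold change was -0.82 (SE 0.086, 95% interval -1.01 to -0.63, limma adjusted p = 0.00089), which is a fall of 43.3%. The exact two-sided permutation test over the 7 libraries gave p = 0.0286, the smallest these group sizes allow. Ephb1 stood 28 in the order of p over all 16197 genes and 29 in size among the 56 genes called lower. Within litter m1, where 2 mice of each genotype were littermates, the log2 difference was -0.95, and the values of the genotypes again did not overlap.

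Ephb2 is a receptor of commissural axons and of excitatory synapses. Its values were 3637, 3712 and 3845 in Fezf2+/+ and 3468, 3891, 3943 and 3954 in Fezf2-/-. The groups overlapped, and the interval of the log2 fold change ran from -0.12 to 0.18 around 0.03 (limma adjusted p = 0.909). This interval leaves out the change measured in Ephb1.

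Ephb3, which acts with Ephb2 in the guidance of commissural axons, was much lower. It was at 212, 207 and 224 in Fezf2+/+ and 227, 240, 215 and 281 in Fezf2-/-, and the groups overlapped (log2 fold change 0.16, 95% interval -0.08 to 0.39, limma adjusted p = 0.65). Behind it stood 197 to 338 reads a library. At the mean reads of each genotype, counting error alone was 6.36 to 6.88% of a value.

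Ephb4 is best known as the ephrin-B2 receptor of venous endothelium. It was at 122.5, 148 and 135 in Fezf2+/+ and 171, 157, 150 and 169 in Fezf2-/-. The 4 Fezf2-/- values were above all Fezf2+/+ values by a small margin, and the difference did not pass the adjusted test (log2 fold change 0.26, 95% interval 0.01 to 0.50, limma adjusted p = 0.437). The 5 markers of venous endothelium, none at 0, summed to 2096 to 2189 in Fezf2+/+ and to 2315 to 2959 in Fezf2-/-. All 5 were higher in Fezf2-/- and 0 were called (limma, edgeR and DESeq2, with 1 at an unadjusted limma p under 0.05). With the transgene they summed to 1936 to 2414, and all 5 were lower than in Fezf2-/- (median log2 fold change -0.355). In that comparison Ephb4 had a log2 fold change of 0.118. The 10 general endothelial markers had overlapping sums, 2967 to 3575 in Fezf2+/+ and 3263 to 4009 in Fezf2-/-. Of these, 8 were higher and 2 lower in Fezf2-/-, and 0 were called by limma. The part of both lists in the Ephb4 values was not tested.

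Ephb6 has lost kinase activity and signals together with other Eph receptors. It was at 1920, 2062 and 1872 in Fezf2+/+ and at 1553, 1806, 2091 and 1576 in Fezf2-/-. The Fezf2-/- libraries were split by litter: the 2 of litter m3 were at 1553 and 1576 and the 2 of litter m1 at 1806 and 2091, a log2 difference of -0.31 within one genotype. Between genotypes the groups overlapped (log2 fold change -0.16, 95% interval -0.40 to 0.07, limma adjusted p = 0.644), and within litter m1 the log2 difference was -0.03.

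Among the ligands, Efnb1, an X-linked gene expressed in cortical progenitors, was at 1079, 1050 and 1033 in Fezf2+/+ and at 1321, 1008, 1128 and 1086 in Fezf2-/-. One Fezf2-/- library, bc204, was higher than all the others, and the groups overlapped (log2 fold change 0.10, 95% interval -0.09 to 0.29, limma adjusted p = 0.729).

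Efnb2, a ligand of axons and of arterial endothelium, was at 5657, 5499 and 5188 in Fezf2+/+ and at 6009, 5816, 5910 and 6280 in Fezf2-/-. All Fezf2-/- libraries were higher, though only slightly. The log2 fold change was 0.14 (95% interval 0.03 to 0.26, limma adjusted p = 0.346), and it was 0.07 within litter m1. The 7 arterial markers, 5 of which passed the filter, had summed values that overlapped, 658 to 747 in Fezf2+/+ and 674 to 725 in Fezf2-/-.

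Efnb3, the ligand that stops corticospinal axons at the spinal midline, was at 3733, 4098 and 4021 in Fezf2+/+ and at 4135, 4331, 3672 and 4245 in Fezf2-/-. The groups overlapped, and the log2 fold change was 0.05 (95% interval -0.11 to 0.21, limma adjusted p = 0.842).

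**Figure D2:**
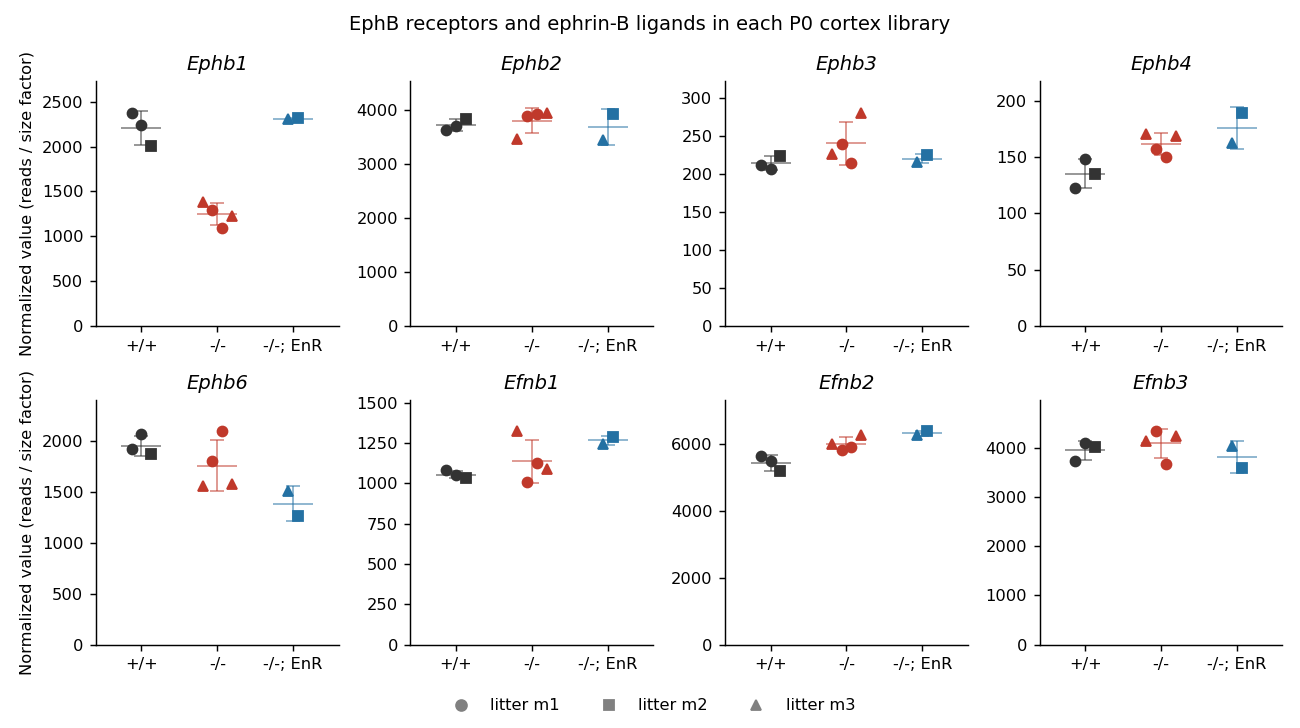
Each panel gives the normalized value (reads divided by size factor, axis from 0) of one member in the 9 libraries by genotype, with litter as the shape of the point and the mean and SD as a horizontal line with bars. Ephb1 lies between 1092 and 1385 in the 4 Fezf2-/- libraries and at 2007 or more in the other 5.

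To ask whether the repressor form of FEZF2 restored expression, Fezf2-/-; Fezf2-EnR cortices were compared with Fezf2-/-. Ephb1 was 2305 and 2319 in the Fezf2-/-; Fezf2-EnR libraries, above all 4 Fezf2-/- libraries. It rose by 0.89 on the log2 scale (SE 0.098, 95% interval 0.67 to 1.11, limma adjusted p = 0.00216), a fold of 1.85. This was the single member called of 8, beside 0.766% of all genes and 0.333% called higher. The exact two-sided permutation test gave p = 0.0667, the smallest that 2 libraries against 4 allow, so that test could not reach 0.05. Litter m3 held both genotypes, and there the log2 difference was 0.82, from 1 library against 2. Ephb1 stood 18 in the order of p and 31 in size among the 54 genes called higher.

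The other members had smaller differences that were not called. Groups did not overlap in 2 members, Ephb1 and Ephb6, beside 24.6% of all genes, and these 2 had an unadjusted p under 0.05, beside 16.9%. Ephb6 was at 1502 and 1260 in the Fezf2-/-; Fezf2-EnR libraries, below every Fezf2-/- library, with a log2 fold change of -0.34 (95% interval -0.61 to -0.08, limma adjusted p = 0.206). Within litter m3 the Ephb6 difference was -0.06 on the log2 scale. Ephb2 was at 3456 and 3935, Ephb3 at 216 and 225, and Ephb4 at 162 and 189. These 3 receptors overlapped Fezf2-/-, with log2 fold changes of -0.05, -0.12 and 0.12 and limma adjusted p of 0.793, 0.651 and 0.674. For the ligands, Efnb1 was at 1246 and 1286, Efnb2 at 6269 and 6380, and Efnb3 at 4041 and 3585. They overlapped Fezf2-/- too, with log2 fold changes of 0.16, 0.08 and -0.10 and limma adjusted p of 0.409, 0.534 and 0.545.

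Set against Fezf2+/+, the Fezf2-/-; Fezf2-EnR cortices showed 0 members called by limma and 0 by edgeR, with 4 at an unadjusted limma p under 0.05 and 2 called by DESeq2. Over all genes limma called 0.117%, edgeR 0.0926% and DESeq2 5.58% of the genes to which it gave an adjusted p, while 19.3% had an unadjusted p under 0.05. The 19 genes called by limma became 32 with litter as a block. In 4 members the groups did not overlap, beside 34.6% of all genes, and the smallest p that the exact permutation test can give for 2 against 3 libraries is 0.1. All 3 comparisons draw on the same 3 groups of libraries and share them pairwise.

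Ephb1 overlapped the wild-type level. Both Fezf2-/-; Fezf2-EnR values, 2305 and 2319, lay between the lowest and the highest Fezf2+/+ library. The log2 fold change was 0.07 with a 95% interval from -0.16 to 0.30 (limma adjusted p = 0.739). In bc201, the Fezf2+/+ library with high Xist, Ephb1 was 2375.

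Ephb6 was lower in both Fezf2-/-; Fezf2-EnR libraries than in any Fezf2+/+ library. Its log2 fold change was -0.50 (95% interval -0.78 to -0.22), the largest of any member here, with an adjusted p of 0.122 by limma, 0.131 by edgeR and 0.0137 by DESeq2. With litter as a block it was -0.36 (limma adjusted p = 0.19). Ephb6 was 1920 in bc201.

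Efnb2 was higher in both Fezf2-/-; Fezf2-EnR libraries than in any Fezf2+/+ library, by 0.22 on the log2 scale (95% interval 0.08 to 0.35), with an adjusted p of 0.142 by limma, 0.141 by edgeR and 0.0338 by DESeq2. Efnb1 was higher by 0.26 (95% interval 0.04 to 0.49, limma adjusted p = 0.199), and Ephb4 by 0.37 (95% interval 0.08 to 0.67, limma adjusted p = 0.179). In bc201, Efnb2 was 5657, Efnb1 was 1079 and Ephb4 was 122.5. The 9 markers of radial glia and progenitors, none at 0, summed to 14960 to 16430 in Fezf2+/+ and to 19500 to 19540 in Fezf2-/-; Fezf2-EnR. In that list 8 were higher and 0 were called by limma or edgeR, with 7 at an unadjusted limma p under 0.05 and 3 called by DESeq2, and its part in the ligand values was not tested. Ephb2, Ephb3 and Efnb3 overlapped Fezf2+/+, with log2 fold changes of -0.02 (95% interval -0.19 to 0.16), 0.04 (-0.24 to 0.32) and -0.05 (-0.24 to 0.14).

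**Figure D3:**
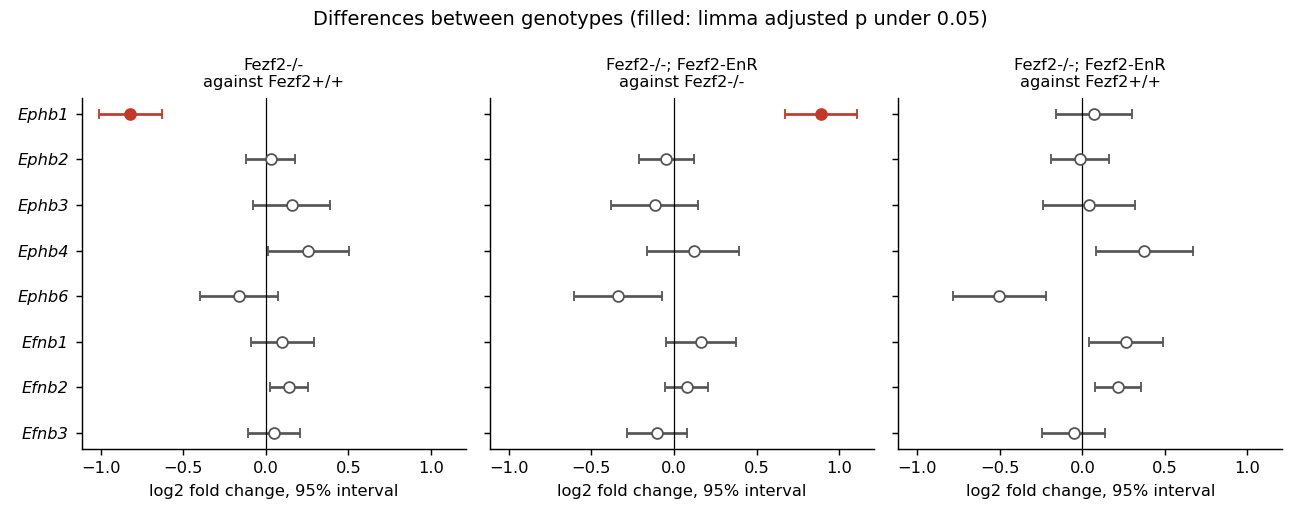
Points give the log2 fold change of each member in the 3 comparisons and bars its 95% interval from limma. Filled red points passed an adjusted p under 0.05, and these are Ephb1 at -0.82 in Fezf2-/- against Fezf2+/+ and at 0.89 in Fezf2-/-; Fezf2-EnR against Fezf2-/-.

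The 2 Ephb1 calls were repeated under other settings. In Fezf2-/- against Fezf2+/+ it was called in 20 of 20 alternatives, with log2 fold changes from -0.95 to -0.76. The highest adjusted p, 0.0107 by limma, came without the Fezf2+/+ library bc202. In Fezf2-/-; Fezf2-EnR against Fezf2-/- it was called in 19 of 19, from 0.83 to 0.94. There the highest adjusted p was 0.047 by limma, without the Fezf2-/-; Fezf2-EnR library bc209, which leaves that group with 1 library that is assumed to vary like the others. With litter as a block the values were -0.88 (limma adjusted p = 0.00202) and 0.93 (limma adjusted p = 0.00507).

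**Figure D4:**
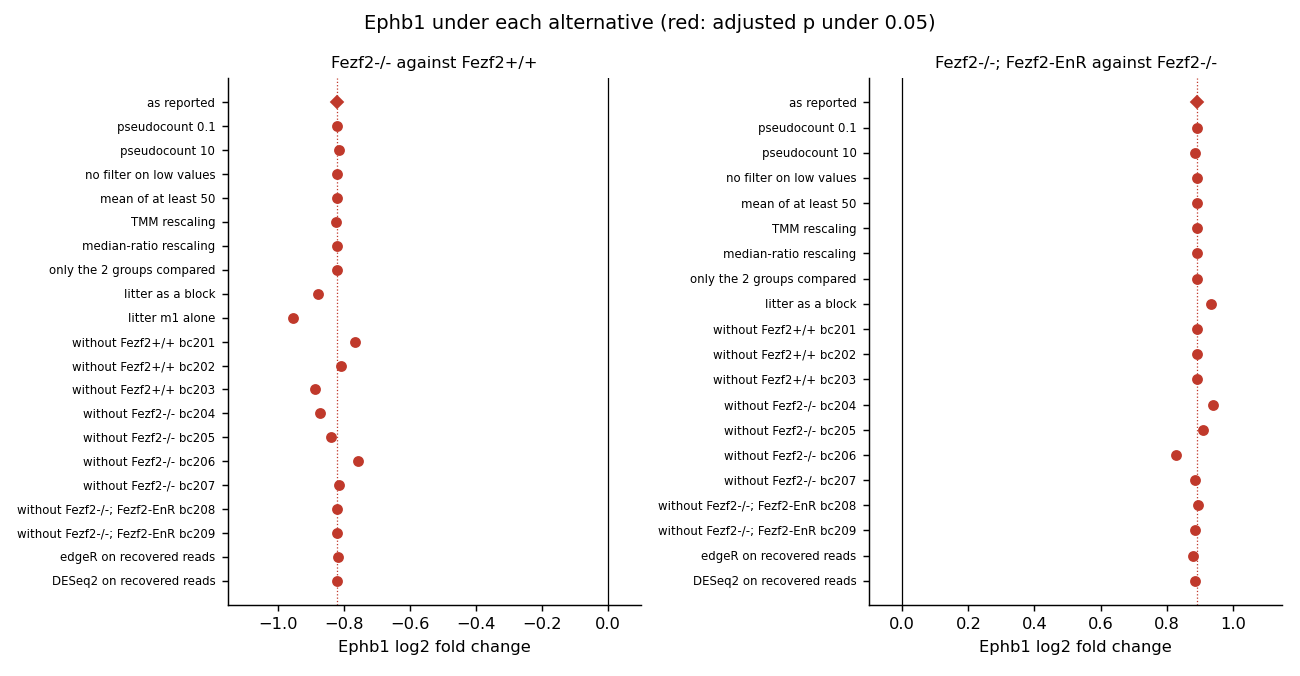
Each point is the log2 fold change of Ephb1 under one alternative setting, for Fezf2-/- against Fezf2+/+ on the left and Fezf2-/-; Fezf2-EnR against Fezf2-/- on the right. The diamond and dotted line mark the value as reported. Every point is red, for an adjusted p under 0.05, and the points run from -0.95 to -0.76 and from 0.83 to 0.94.

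The 5 genes whose pattern over the 9 libraries was most like that of Ephb1 were sought among 12962 genes with a mean of at least 50, by Pearson's r of log2(value + 1). They were Tcerg1l (r = 0.981), Tle4 (0.978), Hs3st4 (0.965), Mme (0.961) and Fezf2 (0.961). Fezf2 is the gene that was removed, and with the transgene its reads can come from the fusion. The libraries fall into groups by genotype, so these coefficients mostly describe a shared step between Fezf2-/- and the rest. The size of the step differed. Tcerg1l averaged 819 in Fezf2+/+, 177 in Fezf2-/- and 732 in Fezf2-/-; Fezf2-EnR. Tle4, a corepressor gene marking corticothalamic neurons, averaged 2752, 941.5 and 3235 in the same order. Mme, which encodes the membrane peptidase neprilysin, had a step of a size like that of Ephb1, with means of 347, 219 and 330.

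**Figure D5:**
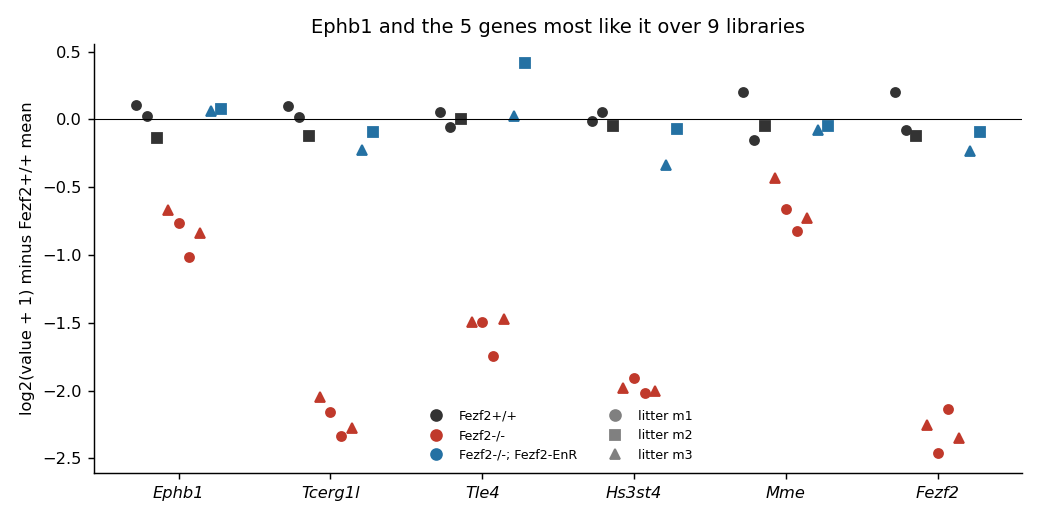
Points give log2(value + 1) minus the Fezf2+/+ mean for Ephb1 and the 5 genes most like it, in 9 libraries, with colour for genotype and shape for litter. All 4 Fezf2-/- libraries lie below the other 5 in each gene, and the fall is smaller in Ephb1 and Mme than in the other 4 genes.

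Neurons that depend on Fezf2 were traced by 2 marker lists, chosen with earlier results of these data known. The paper reported RNA of Ephb1, Tcerg1l, Ldb2 and Wnt7b as reduced in Fezf2-/- and restored with the transgene. It reported the same of TLE4, ZFPM2 and FOXP2 protein, and in layer 5 of BCL11B and BHLHB5, the protein of Bhlhe22. A fall and return of these genes here is therefore no independent finding. Layer 5 subcerebral markers summed to 19440 to 19920 in Fezf2+/+, 14430 to 16360 in Fezf2-/- and 21390 to 22010 in Fezf2-/-; Fezf2-EnR. Of 11 tested, 3 were called lower in Fezf2-/- (Bhlhe22, Ldb2 and Tcerg1l), with a median log2 fold change of -0.45, and 2 were called higher with the transgene (Ldb2 and Tcerg1l), with a median of 0.47. Layer 6 corticothalamic markers summed to 15600 to 16330, 8373 to 9598 and 14620 to 18270 in the same order. Of 7 tested, 5 were called lower in Fezf2-/- (median -1.55), and 4 of these, Hs3st4, Nxph3, Tle4 and Zfpm2, were called higher with the transgene (median 1.72). The all-gene medians were 0.0 and 0.003. With each library left out in turn, Bhlhe22 and Ldb2 were called lower in 2 of 9 fits each and Tcerg1l in 9 of 9. Ldb2 was called higher with the transgene in 3 of 9. The 4 named layer 6 genes were called in 9 of 9 in both comparisons, and the fifth, Wnt7b, was called lower in 4 of 9. With litter as a block, Bhlhe22, Ldb2 and Wnt7b were not called in Fezf2-/- against Fezf2+/+ (limma adjusted p = 0.0856, 0.0911 and 0.0615), nor was Ldb2 with the transgene (0.052). The layer 5 genes called lower with the block were Pcp4, Sema3e and Tcerg1l (Pcp4 and Sema3e were named after their values were seen), and those called higher with the transgene were Sema3e and Tcerg1l. No marker in either list was at 0 in all libraries. Both lists moved with Ephb1, and their part in its values was not tested.

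Markers of other cells moved in the same comparisons. Over all genes, 10.8% had an unadjusted limma p under 0.05 on loss of Fezf2. The 7 markers of GABAergic interneurons, none at 0, summed to 6042 to 6337 in Fezf2+/+, 7571 to 8666 in Fezf2-/- and 6226 to 7119 in Fezf2-/-; Fezf2-EnR. On loss of Fezf2 all 7 were higher, with 6 at an unadjusted limma p under 0.05, 0 called by limma or edgeR and 4 by DESeq2 (Dlx2, Dlx5, Gad1 and Gad2, named after their values were seen). The 5 markers of oligodendrocyte precursors, none at 0, summed to 4849 to 5148, 5512 to 5780 and 5391 to 5411 in the same order. All 5 were higher on loss of Fezf2, with 3 at an unadjusted limma p under 0.05 and 0 called by limma, edgeR or DESeq2. Radial glia and progenitor markers summed to 16080 to 19020 in Fezf2-/-, below both libraries with the transgene. Of these 9, 1 was called higher with the transgene, Eomes, a gene of intermediate progenitors (log2 fold change 1.88, limma adjusted p = 0.0426), and it was called in 2 of 9 fits with a library left out. The 7 tested markers of striatal projection neurons summed to 1331 to 1597 in Fezf2+/+, 834.8 to 2439 in Fezf2-/- and 1028 to 1963 with the transgene. The highest sums were in bc204 (2439) and bc208 (1963). The other Fezf2-/- libraries, bc205, bc206 and bc207, were at 1022, 989.4 and 834.8, below every Fezf2+/+ library. In contrast to these sums, 6 of these markers were higher and 1 lower on loss of Fezf2 (median log2 fold change 0.637). Of them 3 had an unadjusted limma p under 0.05, and 0 were called by limma, edgeR or DESeq2. The part of these lists in the Ephb1 values was not tested.

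The rest of the pathway was described from lists of signalling genes. The EphB forward signalling list holds the adaptors, guanine nucleotide exchange factors and kinases that act below the receptors, and 0 of its 37 tested genes were called by limma in any of the 3 comparisons. At an unadjusted p under 0.05 there were 7 in Fezf2-/- against Fezf2+/+, 8 in Fezf2-/-; Fezf2-EnR against Fezf2-/- and 10 in Fezf2-/-; Fezf2-EnR against Fezf2+/+. Over all genes the shares were 10.8%, 16.9% and 19.3% in the same order. The medians of the log2 fold change in this list were 0.04, 0.05 and 0.05. The ephrin-B reverse signalling list had 0 called of 14 in each comparison, with 3, 3 and 2 at an unadjusted p under 0.05 and medians of 0.007, -0.021 and -0.001. The list of proteases and other regulators that cleave or modify Ephs and ephrins had 0 called of 9 tested, with 3, 1 and 1 at an unadjusted p under 0.05 and medians of 0.066, 0.063 and 0.063. Its summed value, in contrast to its median, was lower in every Fezf2-/- library (10400 to 10610) than in any Fezf2+/+ library (11060 to 11220), and it was 10730 to 12050 with the transgene. Its most abundant gene, the protease gene Adam10, which was picked after its values were seen, averaged 3891 in Fezf2-/- and 4430 in Fezf2+/+ (log2 fold change -0.19, limma adjusted p = 0.37). In these 3 lists edgeR called 0 genes in every comparison. DESeq2 called 1 forward signalling gene, Grb10, in Fezf2-/- against Fezf2+/+, and in Fezf2-/-; Fezf2-EnR against Fezf2+/+ it called 4 forward signalling genes (Cbl, Kalrn, Rasa1 and Wasl) and 1 reverse signalling gene (Ptpn13). These genes are named after their values were seen.

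Of the EphA receptors and ephrin-A ligands, the other class of the family, whose ligands are held by a lipid anchor, 0 of 13 tested were called by limma in any comparison, with 1, 5 and 4 at an unadjusted p under 0.05. The shares of all genes at that p were 10.8%, 16.9% and 19.3%. In this class edgeR called 0, and DESeq2 called 2, Epha3 and Epha5, in Fezf2-/-; Fezf2-EnR against Fezf2+/+ alone. Epha4, a receptor that also binds ephrin-Bs and guides corticospinal axons, averaged 3937 with an SD of 248 over the 3 wild-type libraries, 4178 with an SD of 232 over the 4 null libraries and 4238 with an SD of 363 over the 2 with the transgene. On loss of Fezf2 it differed by 0.09 on the log2 scale (95% interval -0.07 to 0.24). Efna5, an ephrin-A that can also bind Ephb2, was 597 ± 83.5, 565 ± 92.1 and 535 ± 13.1 in the same order, with a log2 fold change of -0.09 (95% interval -0.39 to 0.21).

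Of 17 tested guidance genes of other families, limma and edgeR each called 1 in Fezf2-/- against Fezf2+/+ and 0 in the other comparisons. In Fezf2-/- against Fezf2+/+ 15 were higher and 2 lower, with a median log2 fold change of 0.285. An unadjusted limma p under 0.05 was reached by 7 of them, beside 10.8% of all genes. Against Fezf2-/- the transgene libraries had 9 higher and 8 lower (median 0.006), and against Fezf2+/+ 16 higher and 1 lower (median 0.281). In these 2 comparisons 1 and 6 genes had an unadjusted limma p under 0.05, beside 16.9% and 19.3% of all genes. DESeq2 called 2 in the first comparison (Dcc and Ntn1), 0 in Fezf2-/-; Fezf2-EnR against Fezf2-/- and 3 in Fezf2-/-; Fezf2-EnR against Fezf2+/+ (Chl1, Dcc and Robo1). The gene called by limma was Dcc, a netrin receptor, named like the others after its values were seen, which averaged 537 ± 57.9 in wild-type cortex (SD, n = 3) and rose to 770 ± 79.4 in the null (SD, n = 4), by 0.52 on the log2 scale (95% interval 0.30 to 0.74, limma adjusted p = 0.0393). With the transgene Dcc was 732 ± 20.8 (SD, n = 2), a log2 fold change of -0.07 from Fezf2-/- (95% interval -0.32 to 0.18). The Dcc call was kept in 3 of 9 fits with a library left out (limma adjusted p up to 0.171) and was lost with litter as a block (limma adjusted p = 0.114), whereas that of Ephb1 was kept in 9 of 9 and with the block.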

How the data were processed

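Poly(A) RNA of P0 cortices was sequenced by the authors as paired-end reads of 50 bases. Their processing notes name Bowtie, STAR, DESeq and mm10. The counting tool, annotation release and use of strand are not given in the sources used here. The authors deposited a normalized signal, gene counts divided by size factors, to 2 decimals. Low values were whole multiples of 1 read in all 9 libraries (100.0% of values from 20 to 200 within 0.02 of a read), so whole reads were recovered for count tests.

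log2(value + 1) was tested with limma 3.58.1 (eBayes with trend, R 4.3.3) over 16197 genes with a mean of at least 10, with 1 coefficient per genotype and all 9 libraries. A gene was called at a Benjamini-Hochberg adjusted p below 0.05. The fold changes are on the log2(value + 1) scale. Alternatives were other pseudocounts, filters and scalings, leaving out each library, only the 2 groups compared, litter m1 alone, litter as a replicate block, edgeR 4.0.16 and DESeq2 1.42.0. Scripts were tested on simulated data. Litters come from the labels. Over 7 pairs of littermates of different genotype the correlation of deviations from group means was 0.015 to 0.23 (other pairs -0.318 to 0.318). The 2 Fezf2-/-; Fezf2-EnR libraries deviate by equal and opposite amounts, so their pairs are mirrored and give no separate check of litter. Litter entered as a block in an alternative only.

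Gene models are GENCODE M21 (GRCm38), which 24595 of 24624 identifiers matched. Promoters are from RefSeq. Members and lists were chosen with earlier results of these data known. Named were the members, Fezf2, called genes of the pathway and marker lists (at most 4 a list), Epha4, Efna5 and the 5 genes most like Ephb1.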

Additional observations from a re-analysis of the deposited data

Results flagged for a closer look

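In Fezf2-/-, Ephb2 was 3468 in library bc204 and 3891 to 3954 in the other 3, so 1 sample stood far from the rest by Dixon's ratio (0.8712). Groups of 4 were tested for 9 values, the 8 members and Fezf2, and chance flags about 1 in 20. With the transgene, library bc208 had a like Ephb2 value, 3456. Both libraries also had the highest sums of striatal markers, 2439 in bc204 and 1963 in bc208, and a link was not tested. Without bc204 Ephb2 was still not called.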

How the results depend on the processing

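Over 464 alternative values of the 24 member differences, 455 kept their direction and side of the threshold. With litter as a replicate block, Efnb3 turned to -0.0033 in Fezf2-/- against Fezf2+/+, and Ephb2 to 0.015 and Ephb3 to -0.047 in Fezf2-/-; Fezf2-EnR against Fezf2+/+. With each library left out, Ephb2 ran from -0.14 to 0.047 in Fezf2-/-; Fezf2-EnR against Fezf2-/-, and in Fezf2-/-; Fezf2-EnR against Fezf2+/+ Ephb2 ran from -0.11 to 0.077 and Efnb3 from -0.139 to 0.034. By DESeq2, Ephb6 (-0.50) and Efnb2 (0.213) were called in the last comparison. The cause of these changes was not tested.

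The counts of all genes called moved more. In Fezf2-/- against Fezf2+/+ they were 139, and 221 with only the 2 groups, 233 in litter m1, 315 by DESeq2 and 66 to 217 with a library left out. In Fezf2-/-; Fezf2-EnR against Fezf2-/- they were 124, and 67 with only the 2 groups, 450 by DESeq2, and from 21 (without bc209) to 1088 (without bc208). In Fezf2-/-; Fezf2-EnR against Fezf2+/+ they were 19, and 10 with a mean of at least 50, 12 with only the 2 groups, 32 with litter as a replicate block, 641 by DESeq2, and from 8 (without bc209) to 491 (without bc208). The block changed no call of a member. With the longest transcript as length, the mean share of Ephb1 among receptors was 33.5% in Fezf2+/+, 23.0% in Fezf2-/- and 38.5% in Fezf2-/-; Fezf2-EnR, against 26.5%, 17.7% and 31.1%. Groups of 2 to 4 mice and the 128 to 203 reads of Ephb4 limit what can be seen.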
